A study of Arabidopsis thaliana with 4 samples.

Results

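Transcript levels in roots of the Arabidopsis thaliana mutant luh-4 were compared between seedlings given aluminium (Al) and untreated seedlings of the same mutant. Both samples carry the luh-4 allele in the Columbia ecotype, and they are 2 of the 4 samples measured; the other two are wild-type Columbia (Col) roots given the same treatments. Seedlings 6 d old, grown at pH 5.5, were moved to nutrient solution at pH 4.2 with 0 µM AlCl3 (luh-4 control, Col control) or 25 µM AlCl3 (luh-4 Al, Col Al), about 500 seedlings being treated. The treatment description has roots of all arms collected after 4 h, whereas the controls are labelled 0 h, so Al and 4 h in the acid solution cannot be told apart.

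LEUNIG_HOMOLOG (LUH), the gene altered in luh-4, encodes a transcriptional co-repressor that has no DNA-binding domain and is brought to promoters by partner proteins. In acid solution Al becomes soluble and stops root growth within hours. Arabidopsis roots answer by releasing malate and citrate, which bind Al outside the cell, by moving Al into vacuoles, and by a broad stress response of detoxifying enzymes.

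Reads were summed over the transcripts of each locus, and a locus counted as measured where its RPKM (reads scaled by coding length and by the library's total) reached 1 in either luh-4 library, which 17117 of 21531 loci did. Of these, 16208 reached it in both libraries, 511 in luh-4 control alone and 398 in luh-4 Al alone. The 183 loci just inside the threshold, with a maximum of 1 to 1.1 RPKM, had a median of 16 reads in their higher library, and the 194 just outside it, at 0.9 to 1 RPKM, had 13. The totals of assigned reads per library are given with the processing and differed little. Each group has 1 library, so no difference has a replicate check and none was tested; the comparison is of libraries. Ratios are log2 ratios of RPKM plus 0.1, Al over control, and the 95% intervals in parentheses cover counting error only. A gene rose or fell where its ratio was at least 1 or at most -1 and its interval excluded 0. In whole roots, fewer cells of a type and less RNA per cell cannot be told apart.

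LUH (AT2G32700) had 0 reads in luh-4 control and 0 in luh-4 Al, beside 75 in Col control and 63 in Col Al. A count of 0 allows up to 3 reads, and the reads in Col covered 18.62% and 18.96% of the coding length. LEUNIG (LUG), the closest relative of LUH and a co-repressor of the same kind, had 78 and 122 reads in luh-4 control and Al and a ratio of 0.65, so it did not pass the rule. Root identity was checked on markers: 20 of 22 markers of root cell types were measured, and their summed RPKM was 1404 in luh-4 control and 1225 in luh-4 Al, beside 1474 and 1356 in Col. The endodermal gene SCR had 1647 and 1626 reads in the luh-4 libraries and the Casparian strip gene CASP1 3275 and 2991. Not all root markers were this steady. Of the 20 measured, 1 fell, 0 rose and 14 ratios were below 0, with a range of -1.39 to 0.94. Of 19 markers of shoot organs, cuticle and stomata, 12 were listed in any library and 3 were measured. The 9 listed ones under the threshold, among them the stomatal regulators SPCH and FAMA and the leaf gene YAB1, summed to 33 reads in luh-4 control and 16 in luh-4 Al, beside 22 and 18 in Col.

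With Al, 345 genes rose in luh-4 (2.02% of those measured) and 531 fell (3.1%). At least 4-fold were 100 rises (0.584%) and 122 falls (0.713%). The ratios of 93.5% of the measured loci lay within 1 of 0, and the median over all of them was -0.02. The RPKM of the rising genes summed to 6032 in luh-4 control and 17004 in luh-4 Al, and that of the falling genes to 15492 and 5709. Of the rising genes 43 had fewer than 20 reads in both libraries, as did 76 of the falling ones, and 8 and 15 had 0 reads in one library. Of the rising genes 203 reached 5 RPKM in either library, and of the falling ones 274. Both groups span a wide range of levels, as the plot of ratio against level shows.

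**Figure D1:**
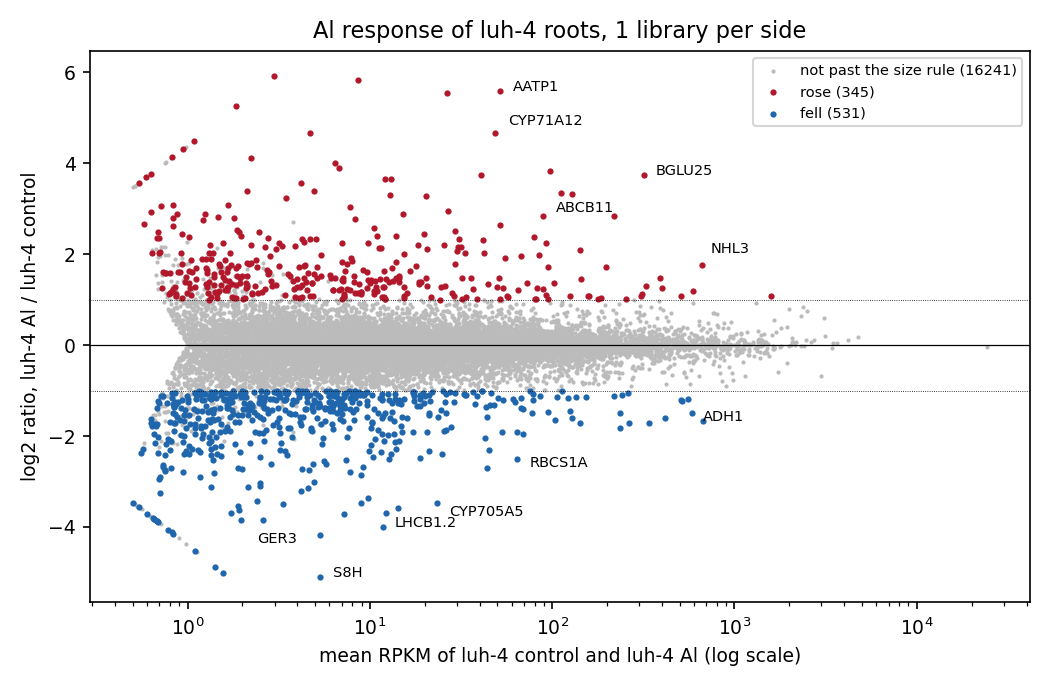
Log2 ratio of luh-4 Al to luh-4 control (vertical axis) against the mean RPKM of both libraries (horizontal axis, log scale) for 17117 measured loci, 1 point each. Red points are the 345 genes that rose and blue points the 531 that fell; dotted lines mark ratios of 1 and -1, and 93.5% of loci lie between them.

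Upstream sequences of 5 genes whose reads are given in the next paragraphs are shown first, as examples of strongly rising genes (AATP1, CYP71A12, LEA4-5) and of falling jasmonate and light-harvesting genes (JAZ8, LHCB2.1). They are the 250 bases before the annotated gene start in the RefSeq annotation of TAIR10.1, read 5′ to 3′ along the gene's strand. They lie at chr5:16021917-16022166 (reverse strand), chr2:13101372-13101621 (reverse), chr5:2090431-2090680 (reverse), chr1:10596102-10596351 (forward) and chr2:1824481-1824730 (reverse), outside the genes named. Capitals mark TTGAC, the core of the W-box bound by WRKY factors, in the first 2 sequences, CGCG, the core bound by calmodulin-binding CAMTA factors, in the third, CACGTG, the G-box bound by bHLH and bZIP factors, in the fourth, and GATAAG, the I-box core found upstream of light-regulated genes, in the fifth.
AATP1: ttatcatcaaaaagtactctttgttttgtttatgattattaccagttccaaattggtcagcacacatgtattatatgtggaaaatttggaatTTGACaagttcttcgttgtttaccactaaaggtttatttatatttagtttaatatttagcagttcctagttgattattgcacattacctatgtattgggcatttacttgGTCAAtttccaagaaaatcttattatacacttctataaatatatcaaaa
CYP71A12: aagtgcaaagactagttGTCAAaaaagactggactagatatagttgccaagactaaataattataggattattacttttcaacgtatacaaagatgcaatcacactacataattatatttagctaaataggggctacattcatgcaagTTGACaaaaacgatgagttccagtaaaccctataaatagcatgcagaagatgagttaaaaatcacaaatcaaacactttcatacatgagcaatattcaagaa
LEA4-5: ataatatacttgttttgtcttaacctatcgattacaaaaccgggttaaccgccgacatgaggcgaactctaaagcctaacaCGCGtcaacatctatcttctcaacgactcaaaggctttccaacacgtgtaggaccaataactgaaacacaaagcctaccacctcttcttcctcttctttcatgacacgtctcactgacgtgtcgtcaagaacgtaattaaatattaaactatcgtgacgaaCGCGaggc
JAZ8: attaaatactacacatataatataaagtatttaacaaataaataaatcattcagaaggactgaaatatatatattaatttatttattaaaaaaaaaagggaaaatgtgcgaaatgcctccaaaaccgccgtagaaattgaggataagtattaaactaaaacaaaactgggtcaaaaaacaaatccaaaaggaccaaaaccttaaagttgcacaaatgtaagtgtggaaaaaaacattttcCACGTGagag
LHCB2.1: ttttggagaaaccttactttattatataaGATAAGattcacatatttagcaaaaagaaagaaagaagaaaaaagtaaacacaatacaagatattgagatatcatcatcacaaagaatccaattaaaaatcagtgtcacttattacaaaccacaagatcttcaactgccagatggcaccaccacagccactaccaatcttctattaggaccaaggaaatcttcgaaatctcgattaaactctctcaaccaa

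Each motif was searched on both strands, and none of the 4 motifs contains another. The sequences of AATP1 and CYP71A12 hold 2 copies of TTGAC each, and that of LEA4-5 holds 2 copies of CGCG. The LEA4-5 sequence also holds 2 of TTGAC and 1 of CACGTG, not marked, and 1 of these TTGAC copies shares a base with a marked CGCG. That of JAZ8 also holds 1 TTGAC and 1 GATAAG in lower case. Among 27443 nuclear protein-coding genes, 44.9% of windows of this length held TTGAC, 10.1% CGCG, 6.49% CACGTG and 12.3% GATAAG. Among the 16915 measured in luh-4 these shares were 45.6%, 10.7%, 7.16% and 11.9%. The 340 rising genes with such a window held TTGAC in 61.2% and CGCG in 20.3% of cases, CACGTG in 7.35% and GATAAG in 11.5%. The 528 falling genes held TTGAC in 45.8%, CGCG in 11.7%, CACGTG in 8.71% and GATAAG in 13.8%. The rising genes thus carried the first 2 motifs more often than measured genes at large, by description only. A match of letters is not a binding site.

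Several of the genes furthest up were also far up in Col. AATP1 (AT5G40010), an AAA-type ATPase, had 43 reads in luh-4 control and 2105 in luh-4 Al, against 41 and 2319 in Col. BGLU25, of the beta-glucosidase family, had 962 and 12679 reads (Col 737 and 14485). A carrier of the multidrug and toxic compound extrusion family, AT1G71140, had 4 and 333 reads (Col 9 and 409). For all 3 the Al library of either genotype was far above both controls. The ratio of AT1G71140 in luh-4 was 5.83 (5.04 to 8.29).

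Rises of abundant transcripts followed the same order of libraries. NHL3, a membrane protein induced by pathogens, had 2901 and 9620 reads in luh-4 control and Al and a ratio of 1.76. NBR1, a cargo receptor of autophagy, had 6897 and 16149 reads, a ratio of 1.26. ABCB11, a P-glycoprotein type transporter, had 1153 and 8055 reads, a ratio of 2.83 (2.75 to 2.93). In Col these genes had 2567 and 10496, 7489 and 18021, and 1240 and 9725 reads, so the genotypes differed little beside the change with Al. AT5G16010, described as a steroid dehydrogenase family protein, had 592 and 4130 reads in luh-4 and 716 and 5106 in Col. The largest gain in RPKM was that of the mitochondrial gene ATMG00030, at 1019 RPKM in luh-4 control and 2166 in luh-4 Al. Its reads were 4537 and 9439 in luh-4 but 13252 and 9464 in Col, so luh-4 control was the library that stood apart. Whether the enrichment of polyadenylated RNA bears on this gene was not tested.

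Indole metabolism, the source of the phytoalexin camalexin and of indole glucosinolates, held some of the strongest rises without moving as a whole. Of 24 measured genes, 5 rose and 1 fell, and the median ratio was 0.03 (0.36 in Col). CYP71A12, a cytochrome P450 of indole phytoalexin synthesis, had 75 and 1908 reads; its near-identical neighbour CYP71A13 had at most 1 read in any library, so the split of reads between the pair is uncertain. FOX1, an oxidase of the same branch, had 17 and 196 reads, and NAC042, a transcription factor that acts on camalexin synthesis, 21 and 271. In each of these 3 genes both Al libraries were above both controls. CYP81F2, which hydroxylates indole glucosinolates, had 182 and 829 reads, and the methyltransferase gene IGMT2 95 and 305. CYP79B3, which makes the shared precursor indole-3-acetaldoxime from tryptophan, fell from 2263 to 829 reads, a ratio of -1.42. Genes of tryptophan synthesis had ratios near 0, such as 0.04 (-0.03 to 0.12) for TSA1.

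Enzymes that conjugate or oxidise small molecules rose in part. Of 45 measured glutathione transferases, which couple glutathione to reactive compounds, 9 rose and 3 fell (median 0.04). GSTU22 had 179 and 1797 reads, GSTU12 43 and 189, and GSTF7 1787 and 4834. The falling members were GSTU14, with 839 and 218 reads, GSTU28, with 357 and 124, and GSTU26, with 570 and 218. Of 96 glycosyltransferases of the UGT family 6 rose and 3 fell, and of 150 cytochromes P450 13 rose and 17 fell. Among all measured loci 2.02% rose and 3.1% fell, so the falls of glycosyltransferases lie near the overall share. In the sulfate and glutathione list 2 of 8 measured genes rose and the median was 0.46. These were SDI1 and LSU1, both known as markers of sulfur deficiency, with 103 and 340 and with 27 and 65 reads.

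Cytochromes P450, which oxidise small molecules in many pathways, were the family with the most genes past the rule by count, though not by share. Of 18 defensin-like proteins, for example, 6 rose and 4 fell. The most abundant rising P450, CYP706A1, had 1248 and 2461 reads in luh-4 and 659 and 2001 in Col. CYP71B29 had 300 and 725 reads (Col 339 and 963) and CYP96A12 114 and 305 (Col 153 and 367). Thus the rising members were mostly higher with Al in Col as well. Among the falling members the sterol desaturase gene CYP710A3 had 655 and 113 reads (Col 856 and 152), whereas CYP710A2, which acts on the same sterols, had 28 and 7 (Col 10 and 14). CYP82F1 had 421 and 134 reads in luh-4 and 299 and 254 in Col. Of the glycosyltransferases, UGT71C2 had 501 and 994 reads and its relative UGT71C1 2349 and 1051, so members of 1 subfamily moved in opposite directions. Beta-glucosidases, which release stored glucosides, rose in 3 of 20 cases and fell in 0; besides BGLU25 these were BGLU27, with 5 and 36 reads, and BGLU28, with 2 and 25.

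Transporters and calcium sensors passed the rule at unlike shares, beside 2.02% rising and 3.1% falling among all measured loci. Of 34 carriers of the MATE family 4 rose and 3 fell, and of 84 ABC transporters 2 rose, ABCB11 and ABCA7, the latter from 896 to 3296 reads. Calcium sensors rose in 4 of 69 cases and fell in 1, that of the calmodulin gene CAM8, with 39 and 17 reads. AT3G47480, an EF-hand protein, had 2 and 68 reads (Col 2 and 72). CML37, a calmodulin-like protein, had 36 and 82 reads in luh-4 but 6 and 127 in Col, and the ratio in Col was 4.23. The difference between these responses was -3.07 (-4.34 to -1.81). The luh-4 control library was the higher of the controls and the luh-4 Al library the lower of the Al libraries.

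Stress regulators divided. WRKY30, a stress-induced regulator, had 6 and 40 reads in luh-4 control and Al, and DREB2B and DREB2C, factors of drought and heat responses, 22 and 187 and 162 and 670. In the salicylate and immune list 3 of 11 genes rose, FMO1, CBP60G and WRKY70, and GRX480 fell from 53 to 23 reads. FMO1, which makes the immune signal N-hydroxypipecolic acid, had 31 and 106 reads, and in Col 42 and 145. LEA4-5, a late embryogenesis abundant protein of dehydrated tissue, had 5 and 82 reads and led the abscisate list, in which 2 of 14 genes rose and 1 fell. The heat shock family had 2 rises, of the factors HSFA3 (16 and 59 reads) and HSFA1E (95 and 237), and 6 falls of 76. Among the falls were the small chaperone HSP17.6A, with 229 and 44 reads, and the factor HSFA2, with 14 and 3. Families of MYB and bHLH factors had 0 rises, with 4 falls of 69 and 8 of 66. Among all measured loci 2.02% rose and 3.1% fell, so 0 rises in families of this size lie near the overall share.

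The AP2/ERF factors, a family that includes regulators of ethylene and drought responses, had 5 rises and 10 falls among 82 measured members. ABR1, which acts in abscisate responses, had 60 and 166 reads in luh-4 and 101 and 224 in Col. ERF71, a factor of low oxygen responses, had 81 and 35 reads (Col 71 and 33). AT5G61590 had 810 and 303 reads in luh-4 and 503 and 325 in Col, the highest count being that of luh-4 control. Among 61 NAC factors 4 rose and 2 fell; ANAC087, a regulator of cell death in the root cap, had 49 and 150 reads (Col 37 and 149), and NAC100 256 and 532. Of the falling bHLH factors the most abundant was NAI1, which controls the formation of ER bodies, with 267 and 113 reads in luh-4 and 258 and 133 in Col. The other 7 had at most 26 reads in either luh-4 library. Of 73 genes of the auxin families 3 rose and 1 fell, and AT5G53590, of the SAUR family, had 286 and 671 reads (Col 283 and 848).

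**Figure D2:**
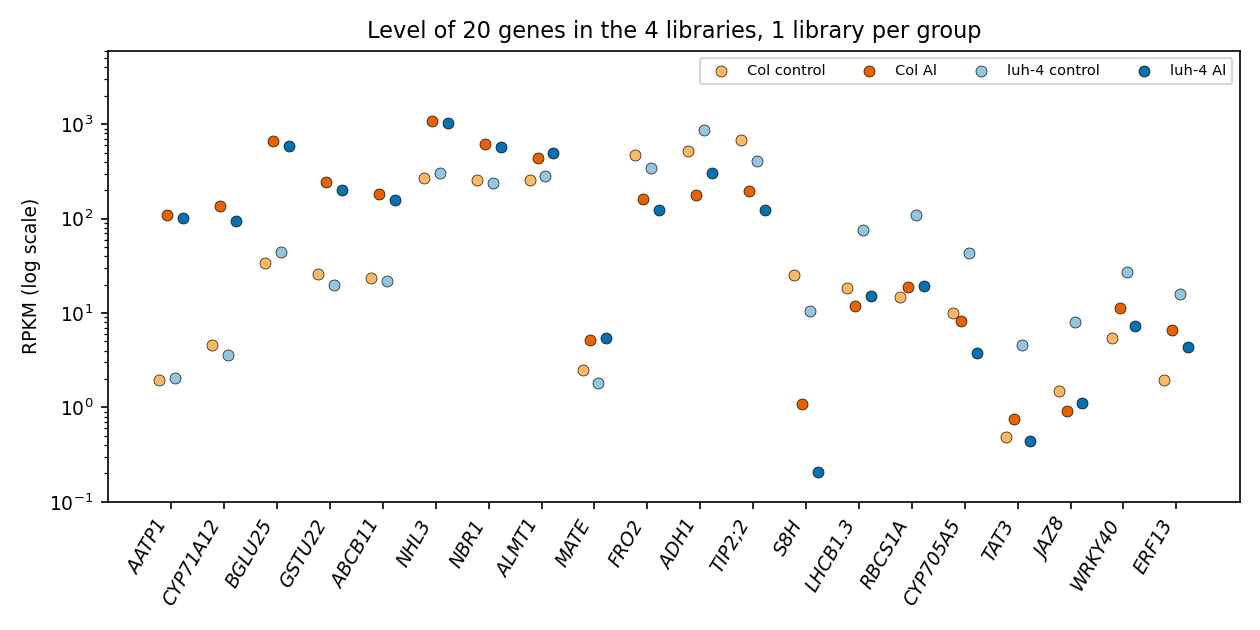
RPKM (vertical axis, log scale) of 20 genes in the 4 libraries, 1 point per library, coloured by genotype and treatment. From AATP1 to NBR1 both Al libraries lie above both controls, whereas from LHCB1.3 to ERF13 luh-4 control is the highest library.

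The genes that protect roots from Al moved little. Of 18 measured genes of Al resistance, 1 rose, 0 fell and the median ratio was 0.21 (0.23 in Col). The citrate transporter gene MATE (AT1G51340) had 39 and 114 reads in luh-4 and 53 and 112 in Col, on 17.31% to 18.73% of its coding length, so this one rise was lost where 50% coverage was required. ALMT1 (AT1G08430), the malate channel, was abundant in every library, with 5725 and 9860 reads in luh-4 and 5152 and 9034 in Col. Its ratio of 0.81 (0.77 to 0.86) did not reach the rule, and the difference between the responses was 0.02 (-0.05 to 0.09). ALS1, a transporter of the vacuole membrane, had 1063 and 1416 reads, ALS3, an ABC-type protein, 409 and 535, and RAE1, an F-box protein that acts on STOP1, 1058 and 1786. PGIP1, a polygalacturonase inhibitor of the wall, had 18215 and 26124 reads and a ratio of 0.55 (0.52 to 0.58). WRKY46, a repressor of ALMT1, had 46 and 28 reads in luh-4 and 14 and 29 in Col. The regulator STOP1 was not analysed here.

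**Figure D3:**
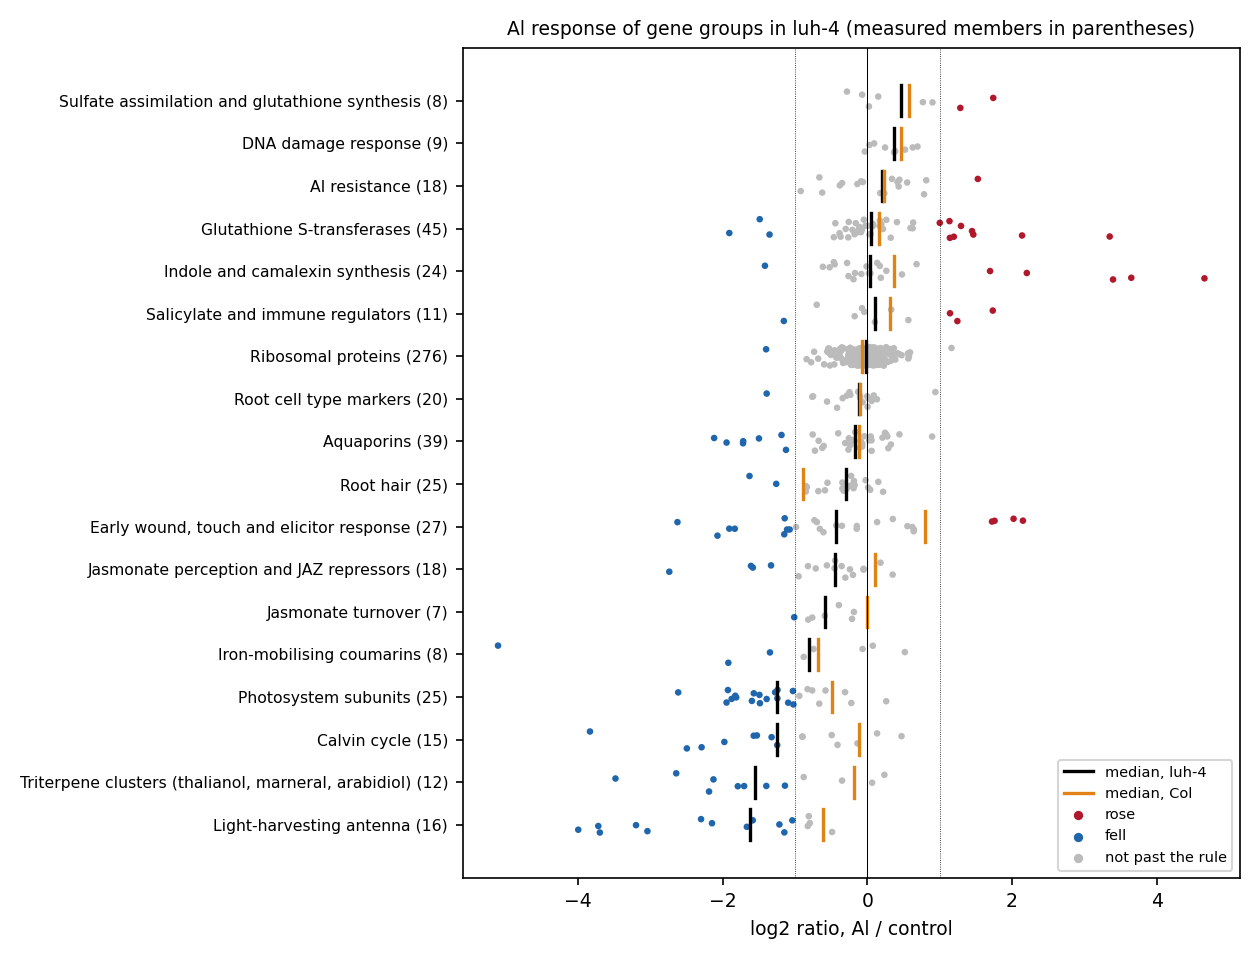
Log2 ratios of Al to control in luh-4 (horizontal axis) of the measured members of 18 gene groups, 1 point per gene; red rose, blue fell, grey did not pass the rule, black bars are medians in luh-4 and orange bars medians of the same genes in Col. The antenna, triterpene, Calvin cycle and photosystem groups lie furthest left, with luh-4 medians of -1.63 to -1.24.

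Falling genes that were also lower with Al in Col included iron, water channel and wall genes. FRO2, the root ferric reductase, had 10368 and 3621 reads in luh-4 control and Al (Col 13996 and 4851), a ratio of -1.49 (-1.54 to -1.43). It was the only one of 22 measured iron genes to fall; the iron transporter IRT1 had 3396 and 2077 reads, a ratio of -0.68 (-0.76 to -0.60). Of 8 genes of iron-mobilising coumarins 3 fell. S8H, which makes fraxetin, had 155 and 3 reads (Col 370 and 16), and the regulator MYB72 had 46 and 11. F6PH1, the main enzyme of scopoletin synthesis, had 5300 and 7436 reads, a ratio of 0.52 (0.47 to 0.57), so genes of one pathway lay on both sides of 0.

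Water channels fell in 7 of 39 measured cases and rose in 0, and the summed RPKM of all aquaporins was 9431 in luh-4 control and 6453 in luh-4 Al (Col 10459 and 6920). The vacuolar channels DELTA-TIP and TIP2;2 had 5383 and 1600 and 4210 and 1253 reads, both a ratio of -1.72. The plasma membrane channel PIP2;4 had 1379 and 477 reads, and NLM1, of the nodulin-26-like group, 1342 and 340. PIP1B had 1021 and 437 reads in luh-4 and 987 and 698 in Col, and the difference between the responses was -0.68 (-0.89 to -0.47).

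Secreted proteins of the wall were also among the falls. Of 56 class III peroxidases, which use hydrogen peroxide in the wall, 4 rose and 7 fell (in Col 5 and 10). AT5G64100, the most abundant of those that fell, had 13945 and 4260 reads (Col 15774 and 3756), and AT5G64120 had 4994 and 1372. Among 44 arabinogalactan proteins 8 fell and 2 rose (in Col 13 and 2). AGP22 had 1643 and 531 reads and FLA9 7428 and 3097, while AGP1 rose from 1954 to 4382. Lipid transfer proteins fell in 12 of 54 cases and rose in 2 (in Col 10 and 3), and AT5G46900 among them had 404 and 60 reads. Besides these families, ADH1, alcohol dehydrogenase, had 13551 and 4715 reads in luh-4 and 8186 and 2771 in Col. Its ratios were -1.49 and -1.57. CER4, a reductase that makes wax alcohols, had 325 and 48 reads, and the xylosidase BXL1, which LUH activates in seed coats, 699 and 128.

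Genes of wall-modifying proteins moved in both directions. Of 22 expansins 2 rose and 0 fell (in Col 0 and 2). Of 25 xyloglucan-modifying XTH genes 2 rose and 3 fell (in Col 2 and 6). XTH22, a touch-induced member, had 1070 and 3464 reads, XTH18 3831 and 7891, and XTH13 262 and 58, the last sharing sequence with XTH12. No pectin methylesterase or inhibitor rose, and 3 of 54 fell, each with at most 84 reads in luh-4 control. With 2.02% rising and 3.1% falling among all measured loci, these pectin counts lie near the overall share. PME46, a pectin methylesterase, had 3507 and 2146 reads in luh-4 and 2824 and 903 in Col. Its ratio of -0.68 (-0.76 to -0.60) in luh-4 did not pass the rule, and the difference from the response of Col was 0.98 (0.85 to 1.11). Proteins with a cysteine-rich C1 domain, a group picked after its values were seen, fell in 11 of 105 cases and rose in 1. In Col 24 of these genes fell and 0 rose. Among them AT1G61840 had 328 and 134 reads in luh-4 and 330 and 65 in Col, and the rising AT2G28270 had 324 and 759 (Col 513 and 994).

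Root hair genes fell less in luh-4 than in Col. Of 25 measured, 2 fell in luh-4 and 9 in Col (where 2.6% of 17068 measured genes rose and 2.91% fell), the medians were -0.29 and -0.89, and 21 of 25 ratios in luh-4 were below 0. The summed RPKM was 2519 in luh-4 control and 2060 in luh-4 Al, beside 2044 and 1062 in Col. EXPA7, an expansin of growing hairs, had 2052 and 1114 reads in luh-4 and 1714 and 424 in Col, and the difference between the responses was 1.18 (0.99 to 1.36). RHS8 had 287 and 89 reads (Col 286 and 40) and was the furthest down in luh-4, at -1.63 (-2.02 to -1.31). RSL4, the factor that drives hair growth, had 67 and 73 reads in luh-4 and 58 and 24 in Col. For EXPA7 and RSL4 the controls lay close together and the Al libraries apart.

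Photosynthesis genes were the largest group among the falls. Across the antenna, photosystem, electron transport, Calvin cycle, chlorophyll and photorespiration lists, 38 of 80 measured genes fell, 0 rose and 74 ratios were below 0. Their reads made up 0.174% of luh-4 control and 0.107% of luh-4 Al, beside 0.133% and 0.0999% in Col. Summed RPKM was 2189 and 1216 in luh-4 and 1547 and 1084 in Col, so luh-4 control was the highest of the 4 libraries and luh-4 Al lay between the Col libraries. No replicate of luh-4 control exists, and whether this library differs from others of its kind was not tested. The shoot organ, cuticle and stomata markers under the threshold are summed above. All 12 listed ones together had 1546 reads in luh-4 control and 1552 in luh-4 Al, beside 1904 and 1938 in Col. The 9 under the threshold gave only 33 and 16 of these reads in luh-4 and 22 and 18 in Col. This total thus rests almost wholly on the 3 measured markers and says little of the low ones. The part of shoot tissue in this result was not tested.

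Antenna proteins bind chlorophyll and pass light energy to the reaction centres. Of 16 measured antenna genes 12 fell, and the median was -1.63 (-0.61 in Col). LHCB1.3 had 829 reads in luh-4 control and 164 in luh-4 Al, beside 201 and 132 in Col. LHCB1.2 had 245 and 14 reads (Col 21 and 11), and LHCB2.1, shown above, 148 and 10 (Col 29 and 16). For these the luh-4 control library alone was high. LHCB1.5 had 2031 and 897 reads in luh-4 and 1979 and 833 in Col, so the controls were close and both Al libraries were low. LHCB copies share sequence, so single values are uncertain.

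Of 25 subunits of photosystems I and II, 17 fell, with a median of -1.24 (-0.49 in Col). PSAG had 66 and 10 reads (Col 20 and 10) and PSAL, a subunit of photosystem I, 168 and 42 (Col 45 and 42). PSBO1, of the oxygen-evolving complex, had 508 and 243 reads and in Col 369 and 186, so Col Al was lower than Col control in the same way; the ratio in luh-4 was -1.03 (-1.26 to -0.81). Among 15 Calvin cycle genes 8 fell, with a median of -1.25 (-0.11 in Col). RBCS1A, a small subunit of Rubisco, had 810 and 140 reads, beside 110 and 143 in Col. PRK, phosphoribulokinase, had 80 and 4 reads (Col 11 and 11). For the RBCS genes and PRK the difference between the responses excluded 0, and for PRK it was -4.12 (-5.93 to -2.31).

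The remaining photosynthesis lists moved less. Of 8 genes of electron transport and ATP synthase 1 fell, plastocyanin PETE2, from 367 to 166 reads. None of 11 chlorophyll genes or 5 photorespiration genes passed the rule. CHLP, a reductase of chlorophyll synthesis, had 715 and 449 reads, a ratio of -0.64 (-0.81 to -0.47), and in Col 738 and 425. When luh-4 Al was instead set against Col control, the Calvin cycle median was 0.10, opposite in sign to -1.25, and the antenna and photosystem medians were -0.48 and -0.44 over the genes measured in luh-4.

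**Figure D4:**
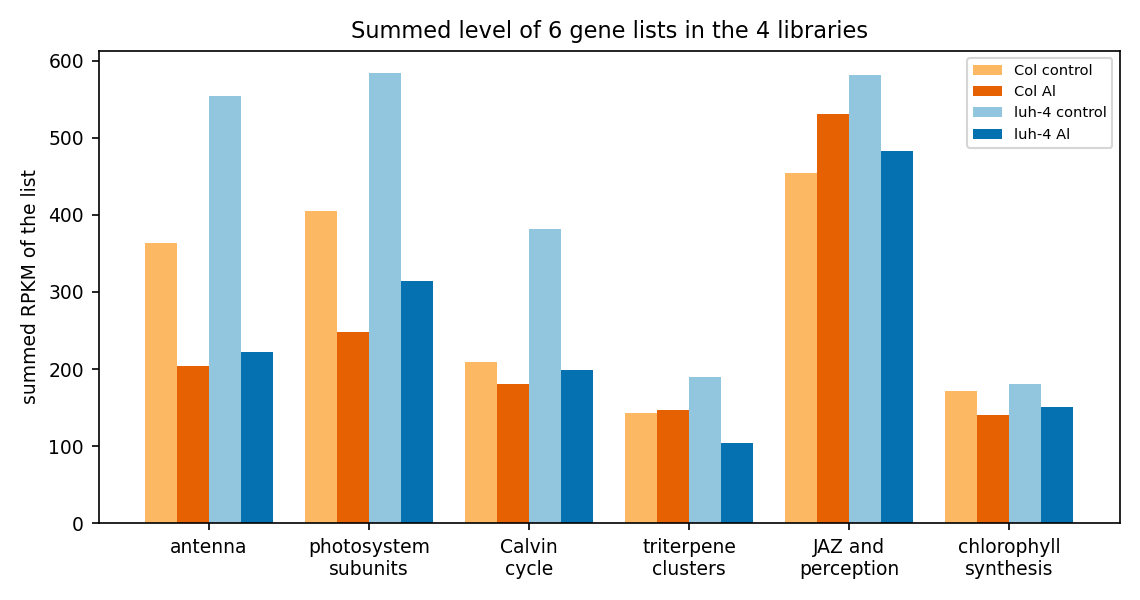
Summed RPKM (vertical axis) of the members of 6 gene lists in the 4 libraries, 1 bar per library (orange Col, blue luh-4, the darker shade with Al). In all 6 lists luh-4 control is the highest bar. It stands at 554 (antenna), 584 (photosystem), 382 (Calvin cycle), 190 (triterpene), 582 (JAZ and perception) and 180 RPKM (chlorophyll synthesis).

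Jasmonate is made from plastid lipids, and its receptor COI1 destroys JAZ repressors so that MYC factors can act. Across 4 lists of synthesis, turnover, perception and targets, 9 of 41 measured genes fell, 0 rose and 35 ratios were below 0, with a median of -0.41 (0.11 in Col). With Col control taken as the baseline instead, the medians of the synthesis, perception and target lists turned from -0.27, -0.45 and -0.18 to 0.030, 0.069 and 0.079, while that of turnover was -0.38. In synthesis 3 of 12 fell. LOX3, a lipoxygenase that starts the pathway, had 65 and 6 reads in luh-4 (Col 9 and 4), and LOX4 211 and 70 (Col 35 and 111). AOS, the next enzyme, had 973 and 597 reads, a ratio of -0.67 (-0.82 to -0.53), and in Col 612 and 776. The abundant AOC3 had 1793 and 1683 reads and a ratio of -0.06 (-0.16 to 0.04).

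In perception 4 of 18 genes fell, all of them JAZ repressor genes. JAZ8, shown above, had 44 and 6 reads (Col 8 and 5), JAZ5 102 and 39 (Col 33 and 36), JAZ7 48 and 15 (Col 7 and 18) and JAZ9 42 and 13 (Col 16 and 17). In each the luh-4 control library was the highest of the 4. COI1 had 1028 and 1142 reads and MYC2, the main factor of the pathway, 1635 and 1168, a ratio of -0.45 (-0.56 to -0.35). JAZ3 had 86 and 107 reads. In turnover CYP94C1, which oxidises jasmonoyl-isoleucine, fell from 70 to 33 reads as 1 of 7. Of 4 measured target genes TAT3, a tyrosine aminotransferase, fell from 84 to 8 reads, and in Col had 9 and 14.

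Early wound, touch and elicitor genes moved in both directions. Of 27 measured, 4 rose and 8 fell in luh-4 while 10 rose and 0 fell in Col, and the medians were -0.43 and 0.80. The rises were NHL3, NHL10, ZAT12 and XTH22; ZAT12, a zinc finger factor of oxidative stress, had 88 and 352 reads (Col 70 and 496). The falls were all of transcription factor genes. WRKY40 had 341 reads in luh-4 control and 88 in luh-4 Al, beside 67 and 141 in Col. ERF13 had 148 and 40 (Col 18 and 62) and ERF109 94 and 14 (Col 10 and 13). The luh-4 Al counts of WRKY40 and ERF13 lay between those of the Col libraries. WRKY33, a regulator of camalexin synthesis, had 1122 and 1614 reads in luh-4 and 633 and 1855 in Col. Over the genes measured in luh-4, luh-4 Al against Col control gave this list a median of 0.41.

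Triterpene genes lie in clusters on the chromosomes and act mainly in roots. Of 12 measured genes of the thalianol, marneral and arabidiol clusters, 8 fell and 0 rose, with a median of -1.55 (-0.19 in Col) and a summed RPKM of 190 in luh-4 control and 104 in luh-4 Al (Col 143 and 147). All 5 measured thalianol genes fell, but with at least 50% of the coding length covered THAS1 and CYP708A2 were left out. CYP705A5, a P450 of that cluster, had 901 and 77 reads (Col 211 and 175), THAS1, the thalianol synthase, 82 and 21 (Col 26 and 41), and the acyltransferase THAA2 295 and 62 (Col 253 and 104). MRN1, the marneral synthase, had 42 and 4 reads and its neighbour CYP71A16 232 and 85. The arabidiol synthase PEN1 did not share this, with 861 and 993 reads and a ratio of 0.24 (0.10 to 0.37). Here luh-4 Al was below both Col libraries for CYP705A5, THAS1 and THAA2.

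Several groups had few or no genes past the rule. Of 276 ribosomal protein genes 1 fell, with a median of -0.02, and of 41 genes matched as histones 1 fell, AT1G21920, which encodes a histone methyltransferase family protein and no histone. Since 2.02% of all measured loci rose and 3.1% fell, a short list may hold no gene past the rule. None of 15 monolignol, 8 flavonoid, 9 circadian clock, 17 ethylene or 8 cell division genes passed the rule. None of 9 DNA damage genes passed it, although 8 of the ratios were above 0 and the median was 0.37 (0.47 in Col). In nitrogen uptake 1 of 23 genes rose, the ammonium transporter AMT2;1 from 130 to 279 reads, and 1 fell, NRT2.4 from 32 to 3. Among the 76 terms of the deposited process annotation with at least 50 measured genes, generation of precursor metabolites and energy had the largest share of falls, 17 of 67 genes. The largest share of rises, 6 of 53, was in response to biotic stimulus.

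The Al responses of luh-4 and Col share no library. Of the 345 genes that rose in luh-4, 200 also rose in Col, which is 58.0% of the luh-4 list and 45.0% of the 444 genes of Col; 300 had a ratio above 0 there, and their median in Col was 1.26. Of the 531 that fell, 180 also fell in Col, 33.9% of the luh-4 list and 36.3% of the 496 of Col, and the median in Col was -0.71. The ratio in Col was within 0.5 of 0 for 18.3% of the rising and 31.6% of the falling genes. Of 16750 genes measured in both responses, 219 responses were higher in luh-4 (1.31%) and 361 lower (2.16%) by at least 1 with a counting interval that excluded 0. Between the controls themselves, 265 genes (1.55%) were higher and 146 (0.855%) lower in luh-4, and the luh-4 control library enters both comparisons.

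**Figure D5:**
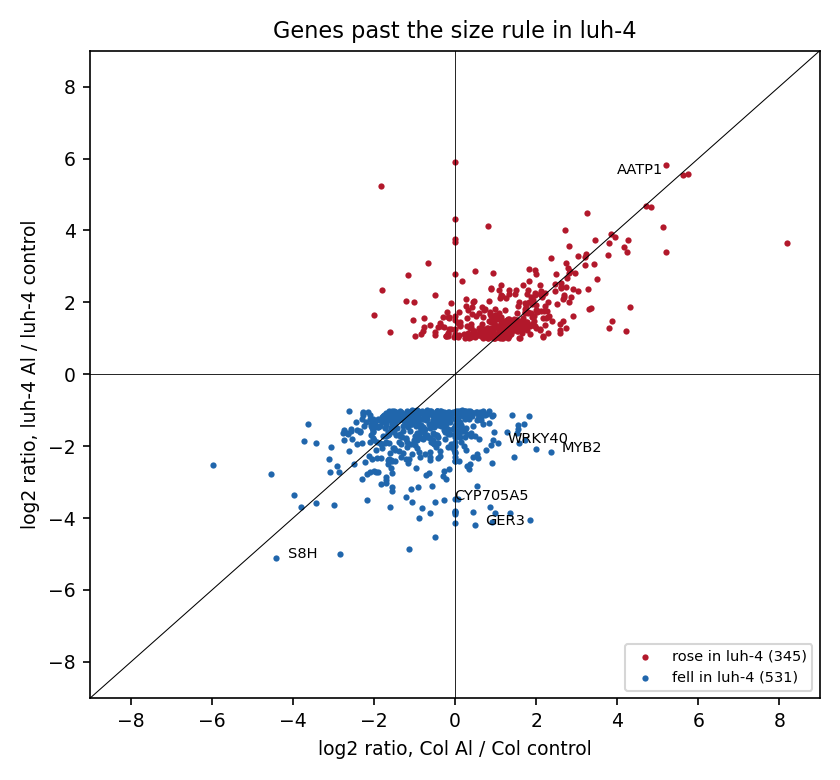
Log2 ratio of Al to control in luh-4 (vertical axis) against Col (horizontal axis) for the 876 genes past the size rule in luh-4, red rising and blue falling, with the line of equal ratios. The median ratio in Col is 1.26 for the rising and -0.71 for the falling genes.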

How the data were processed

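Per the labels' protocols, polyadenylated RNA from the roots was captured on oligo(dT) beads and sequenced, 1 library per group. The build is TAIR 10, per the submitters' processing notes. Which programs aligned and counted the reads is not given in the sources used here. The authors deposited a count of reads for each transcript, its RPKM, and the percent coverage of its coding length. The deposited counts sum to 13735435 in luh-4 control, 13450338 in luh-4 Al, 13697345 in Col control and 13819365 in Col Al, and the deposited RPKM is the count scaled by that total and by length. Whether counting used strand is not given, so overlapping antisense genes cannot be separated, and near-identical copies may share reads.

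Reads and RPKM were summed per locus, and unlisted loci were taken as 0 reads. Intervals are exact (Clopper-Pearson) on the reads without the pseudocount, and those of differences between responses are normal on log reads plus 0.5. PCR reads are not independent molecules, so they cover counting error only. The pseudocount understates changes of low genes. Groups followed the genotype and treatment labels. No significance test between libraries was run, since each group has 1. The 33 gene lists and 27 families (matched on RefSeq product names, revised after the files were seen) were chosen with earlier results of these data known, as were the samples compared. Of 550 list loci, 54, among them STOP1, were not analysed here.

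Named were the 15 genes with a symbol and at least 5 RPKM furthest up and down, the 10 with the largest gain and loss in RPKM, up to 6 members of each list with at least 3 past the rule, jasmonate and photosynthesis genes, LUH, LUG, ALMT1, MATE, ALS3 and PME46; others were chosen after their values were seen. The script that applies the rule for rises and falls was checked on simulated reads. Alternatives included pseudocounts of 1 and 0.01, RPKM minimums, TMM (edgeR 4.0.16) and DESeq2 1.42.0 size factors in R 4.3.3, and Col control as baseline. Python 3.11.15, pandas 2.3.3 and scipy 1.17.1 were used.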

Additional observations from a re-analysis of the deposited data

Results flagged for a closer look

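Past the size rule in opposite directions in the genotypes were 10 genes. Each rests on 1 library per group, and the difference between the Al responses was not tested; the values are the luh-4 ratio minus the Col ratio, log2, computed on reads plus 0.5. Fallen in luh-4 and risen in Col were WRKY40 (-2.97), ERF13 (-3.59), JAZ7 (-2.91), LOX4 (-3.19), CBF2 (-3.06), AT4G28930 (-3.01), AT3G60700 (-3.24) and AT1G24600 (-2.5). WRKY40, ERF13, CBF2 and JAZ7 encode transcriptional regulators and LOX4 a lipoxygenase; the other 3 are uncharacterised or of unknown domain. In all 8 the luh-4 control count was the higher of the controls, for example 26 reads for CBF2 against 5 in Col control. Risen in luh-4 and fallen in Col were AT1G55152 (2.04) and AT1G78922 (2.9), both uncharacterised, with at most 39 reads in any library.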

How the results depend on the processing

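No paired analysis was possible because each group has 1 library and the labels pair none; for the same reason no replicate could be left out. Against 345 rising and 531 falling genes, an RPKM minimum of 5 gave 203 and 274, and a pseudocount of 1 RPKM gave 237 and 316. The count for the difference between the Al responses of luh-4 and Col was 580 as reported, 213 with that minimum and 923 without a counting interval. Setting members at 0 reads to 3 reads, an alternative chosen after seeing the data, moved no list median, which says nothing of stability because few members had 0 reads. Pseudocounts of 0.01, TMM, DESeq2, centring and totals without photosynthesis genes changed the call of none of the 189 named genes. Of these genes 25 lost the call with a pseudocount of 1, 56 with the minimum of 5 and 14, MATE, THAS1 and CYP708A2 among them, with at least 50% coverage, which kept 790 of the 876 calls. With Col control as what luh-4 Al was set against, 439 of the 876 calls were kept, 52 list genes passed the rule in place of 94, and 118 of the 189 named genes had the same call. The cause was not tested. Ratios that changed sign with that baseline were GER3 0.022, LHCB1.1 0.18, RBCS1A 0.37, RBCS1B 0.12, RBCS2B 1.59, RBCS3B 0.52, PSAH2 0.42, SBPASE 0.17, LOX4 0.95, JAZ5 0.26, JAZ7 1.06, ERF109 0.47, ERF13 1.14, WRKY18 0.40, WRKY40 0.41, GRX480 0.72, MYB2 0.57, UNE10 0.50, AT1G22810 0.017, AT4G25410 0.19, CYP707A1 -0.092 and ATMG00030 -0.46, besides the Calvin cycle median of 0.11 over genes measured in either of those libraries. Over genes measured in luh-4, medians also changed sign for chlorophyll synthesis (-0.33 to 0.050), early wound genes (-0.43 to 0.41), flavonoid synthesis (0.09 to -0.27) and the 3 jasmonate lists given above, and for 6 families with medians within 0.1 of 0.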
